A study of Homo sapiens with 9 samples.

Results

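The protein genes of the cytosolic ribosome were followed in DU145, a long-established line from a human prostate cancer, at day 6 of exposure to H93, SAHA or solvent. Members were chosen by symbol (RPL or RPS with a number and, at most, the ending A, X, L or Y1, plus RPSA, RPLP0, RPLP1 and RPLP2) and selected on an expression level of at least 1 FPKM in at least 3 of the 9 libraries. This gave 79 of the 16772 genes in the deposited table, 33 of the small and 46 of the large ribosomal subunit. FPKM is a read count per gene scaled for transcript length and library size. All 79 members also reached 1 FPKM in each of the 9 libraries, so no member passed through 1 treatment group alone. A further 2 symbols fitted the name pattern but lay under the level threshold, RPL36A at 0.0722 to 0.219 FPKM and RPL3L at 0 to 0.0457 FPKM. The lowest member above the threshold, RPS27L, averaged 5.37 FPKM.

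The cells received H93 at 20 µM, SAHA at 500 nM or DMSO alone for 6 days, with 3 libraries per group, and both compounds were dissolved in DMSO. H93 is named in the series title as a compound directed at UHRF1, a protein that brings the maintenance DNA methyltransferase to newly copied DNA. SAHA, or vorinostat, is an inhibitor of histone deacetylases. The doses of H93 and SAHA differ and are not matched to each other, so the comparison of H93 with SAHA sets 1 dose of each side by side. The medium was changed daily in all groups, all libraries came from the same line, and nothing in the labels says that the replicates were separate cultures. The p-values therefore set each difference only against the spread of libraries within groups, estimated from all 3 groups, and that spread could be technical. Absolute read depth is unknown. FPKM summed to between 348656 and 355741 per library, and between 14910 and 15295 genes lay above 0.

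Markers of the cell type did not stay level between groups. The epithelial genes KRT8, KRT18, KRT19, EPCAM and CDH1 were all above 1 FPKM in every library and summed to 1827 to 1864 FPKM in H93, 1751 to 1827 in SAHA and 1583 to 1623 in DMSO. The prostate luminal gene TMPRSS2 lay at no more than 0.0621 FPKM. KLK3 and CD3E were not analysed here. The leukocyte gene PTPRC lay at no more than 0.0179 FPKM, while CD68 ran from 22.1 to 34.9 and was highest in SAHA. The summed fibroblast genes ran from 3.40 to 4.02 FPKM in H93, 3.29 to 5.29 in SAHA and 2.28 to 3.11 in DMSO, and endothelial genes summed to no more than 0.302. The part of these shifts in the ribosomal protein values was not tested.

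The cytosolic ribosome joins a small subunit, which binds and decodes the mRNA, to a large subunit, which forms peptide bonds and releases the chain through an exit tunnel. Each ribosome carries most of its proteins as a single copy, while the acidic stalk proteins RPLP1 and RPLP2 occur as dimers on RPLP0. Most mRNAs of ribosomal proteins begin with a 5′ terminal oligopyrimidine tract, a C at the first transcribed base followed by further C or T bases, through which the kinase mTORC1 and the RNA-binding protein LARP1 control their translation and stability.

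The annotated starts of the members show this feature. A tract was searched on the transcribed strand as a C at the first base followed by at least 4 bases that were C or T. Only the listed first base was searched, so a tract a few bases from a listed start was not counted. RefSeq starts on GRCh38.p14 were available for 63 members, and 46 of them (73.0%) had a tract at a listed start, against 5.14% of all 27305 genes with a start and 7.52% of the tested genes with a start. The median length was 8 bases in members with a tract. Below are 30 bases around the start of some members with the largest differences, with and without a tract, with 15 bases before the start in lower case and, from the start on, the tract in capitals. The first 5 genes were lower after H93 than after DMSO, the next 4 were higher, and RPS27L is the member with the largest rise, shown beside its paralogue RPS27.
RPS9: gtggcgcttccgcgcCTCTTTCTCagtgac
RPL7A: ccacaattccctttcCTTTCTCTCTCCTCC
RPL35: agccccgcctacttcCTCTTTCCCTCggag
RPL6: ggggagacggcgcgtgcactgtgttcctgg
RPL12: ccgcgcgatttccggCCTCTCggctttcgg
RPS12: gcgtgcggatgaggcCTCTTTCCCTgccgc
RPSA: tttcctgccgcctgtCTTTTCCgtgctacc
RPLP0: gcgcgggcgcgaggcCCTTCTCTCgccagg
RPS25: tctgagcagcgcttcCTTTTTgtccgacat
RPS27: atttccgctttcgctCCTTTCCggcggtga
RPS27L: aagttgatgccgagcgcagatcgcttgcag
These windows lie at chr19:54200843-54200872 (plus strand) for RPS9, chr9:133348203-133348232 (plus strand) for RPL7A, chr9:124861943-124861972 (minus strand) for RPL35, chr12:112409271-112409300 (minus strand) for RPL6, chr9:127451392-127451421 (minus strand) for RPL12 and chr6:132814554-132814583 (plus strand) for RPS12. The others lie at chr3:39406705-39406734 (plus strand) for RPSA, chr12:120201097-120201126 (minus strand) for RPLP0, chr11:119018329-119018358 (minus strand) for RPS25, chr1:153990747-153990776 (plus strand) for RPS27 and chr15:63157463-63157492 (minus strand) for RPS27L. RPL6, which fell, and RPS27L, which rose, had no tract at a listed start, and the others shown had one of 6 to 16 bases.

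The members were among the most abundant mRNAs of these cells. Their mean FPKM over the 9 libraries had a median of 515, against 10.0 over all 11525 tested genes, and 43 of the 100 genes with the highest mean were members. FPKM is scaled for length, so these levels can be set beside each other roughly, within the limits on shared reads given below. RPS2, which lines the mRNA entry channel of the small subunit, was highest at 2163 FPKM, followed by RPS18 at 1808, RPS27 at 1777 and RPLP0, the base of the acidic stalk, at 1767 FPKM. In all 14 members averaged at least 1000 FPKM, 57 lay between 100 and 1000, and 8 lay under 100. The lowest 4 were RPL39L at 45.9, RPL17 at 10.5, RPS10 at 6.18 and RPS27L at 5.37 FPKM. Of the 78 pairs of members next to each other in this order, 70 had ranges that overlapped over the 9 libraries, so the order is mostly not resolved between neighbours. RPS2 did not overlap RPS18 below it.

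**Figure D1:**
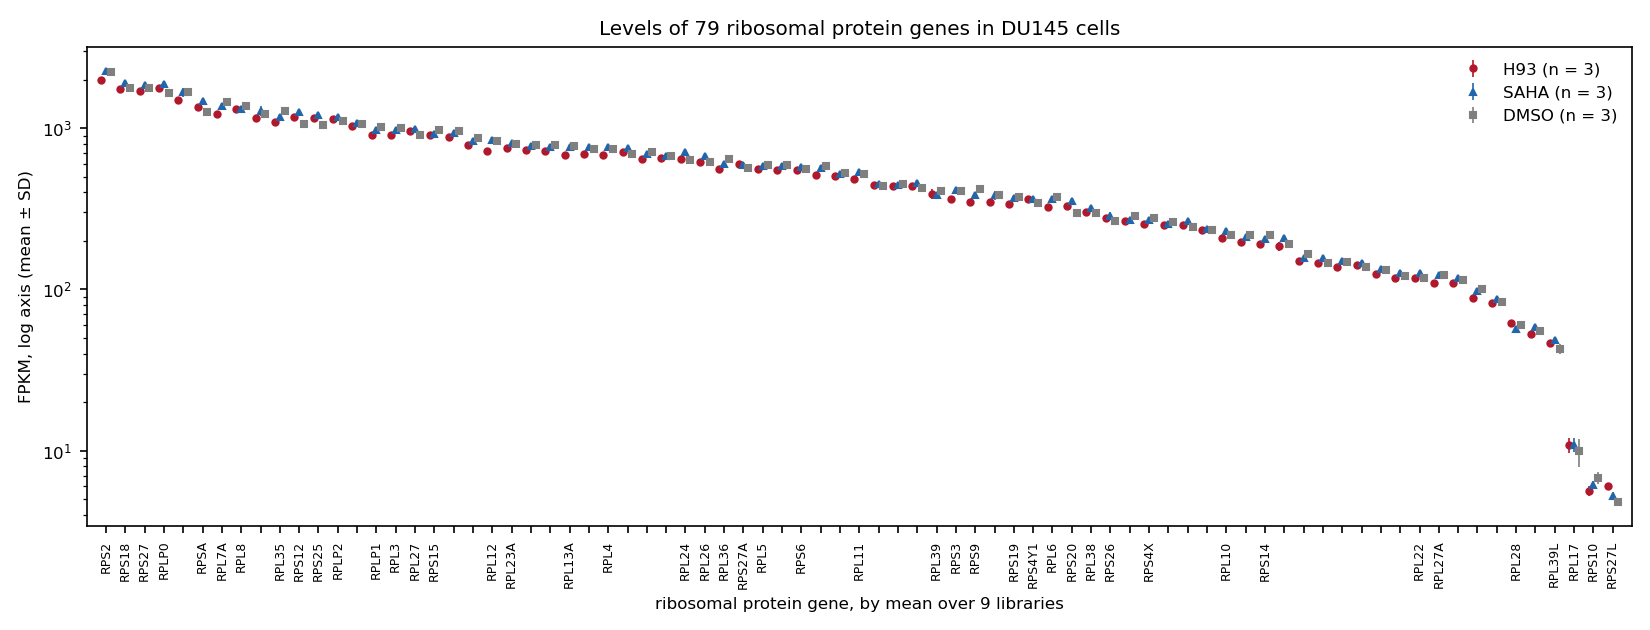
Mean FPKM ± SD on a log axis for each of the 79 ribosomal protein genes in H93, SAHA and DMSO libraries (n = 3 each), sorted by the mean over 9 libraries, with genes named in the text labelled. The members span 5.37 to 2163 FPKM, and the treatment groups lie close together within each gene.

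RPS10 and RPL17 need care. Both encode single-copy proteins of the ribosome, yet they lay near 6 and 11 FPKM while 57 members lay between 100 and 1000. In the GENCODE 29 annotation RPS10 (chr6:34417454-34426125) overlaps the readthrough gene RPS10-NUDT3 on its own strand, and RPL17 (chr18:49488453-49492523) overlaps RPL17-C18orf32. RPL36A, under the level threshold, overlaps RPL36A-HNRNPH2. How the authors' counting divided reads between such genes is not given in the sources used here, so the levels of these 3 genes are uncertain. In all 8 members overlapped another coding gene on the same strand. The genome also holds 1114 processed or other pseudogenes named after 75 of the 79 members (median 9, highest 91 for RPL23A), and reads shared with near-identical copies could move any of these values.

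As a group the members held the lowest share of the summed FPKM in the H93 libraries. Their share was 13.08, 12.99 and 13.05 percent in the H93 libraries, 13.54, 13.88 and 14.05 percent in the SAHA libraries and 13.82, 13.46 and 13.59 percent in the DMSO libraries. This corresponds to 13.04 ± 0.0469 percent for H93, 13.82 ± 0.263 percent for SAHA and 13.62 ± 0.181 percent for DMSO (SD, n = 3 each). All 3 H93 libraries lay below all 6 others, while the SAHA and DMSO ranges overlapped. The smallest two-sided p that an exact permutation test can give at 3 against 3 is 0.1, and the share was not tested.

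The median difference from DMSO was lowest in the H93 libraries too. On the log2(FPKM + 1) scale, the scale of every log2 value below, the median over members of the difference from the DMSO mean was -0.06, -0.08 and -0.08 in the H93 libraries, -0.02, 0.04 and 0.05 in the SAHA libraries and 0.03, -0.02 and -0.00114 in the DMSO libraries. SAHA replicate 1 lay below the other SAHA libraries and within the DMSO range. Replicate spread was small: the median coefficient of variation over members was 1.43% in H93, 3.65% in SAHA and 2.16% in DMSO. In bulk RNA, fewer cells of a type and less RNA per cell cannot be told apart.

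**Figure D2:**
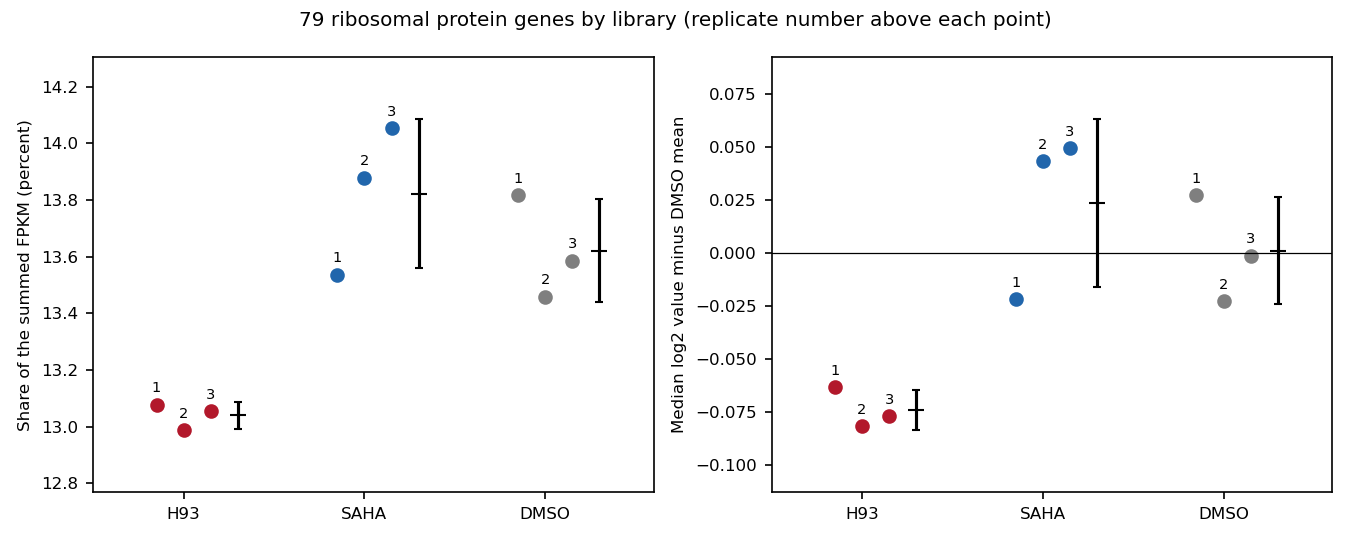
Left, share of the summed FPKM held by the 79 genes in each library, and right, the median over the 79 genes of the log2(FPKM + 1) difference from the DMSO mean; numbers are replicate numbers and bars are mean ± SD (n = 3). The H93 libraries hold 12.99 to 13.08 percent, below every SAHA and DMSO library, and SAHA replicate 1 lies apart from the other SAHA libraries.

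The first comparison asked what H93 did to these mRNAs relative to solvent. Of the 79 members, 40 were lower and 9 higher in H93 than in DMSO at an adjusted p under 0.05 (limma with Benjamini-Hochberg over 11525 genes), and 30 were not called. Over all tested genes 35.0% were called lower and 34.9% higher, so the share of members called lower (50.6%) lay above the background and the share called higher (11.4%) below it. The H93 and DMSO libraries did not overlap in 60 members, where 73.2% of all tested genes did not overlap. The median difference was -0.07 over members and 0.00157 over all tested genes. Differences were small: none of the 79 reached 2-fold, a size that 2.28% of tested genes reached, and the largest was 0.29.

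The members that fell most after H93 belonged to both subunits. RPS9, a small-subunit protein of the mRNA entry channel, had 356, 338 and 356 FPKM in H93 and 439, 406 and 418 FPKM in DMSO libraries. RPL7A had 1223, 1232 and 1222 FPKM in H93 and 1481, 1424 and 1458 FPKM in DMSO libraries. RPL35, at the mouth of the exit tunnel, had 1076, 1089 and 1116 FPKM in H93 and 1308, 1250.1 and 1299 FPKM in DMSO libraries. Every H93 library lay below every DMSO library in all 3 genes. The log2 differences were -0.26 (SE 0.0337, adjusted p = 1.66e-05) for RPS9, -0.25 (SE 0.0263, adjusted p = 3.46e-06) for RPL7A and -0.23 (SE 0.0274, adjusted p = 8.43e-06) for RPL35 in limma, or 16.8, 15.7 and 14.9 percent lower by group means. RPL6 (-0.21), RPS14 (-0.19), RPL12 (-0.19) and RPL36 (-0.19) fell as well. RPL12 sits at the base of the acidic stalk, and RPS14 lies in the chromosome arm lost in the 5q deletion of myelodysplastic syndrome. RPS10 fell by 0.22 at about 6 FPKM, with the counting limit given above.

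The 9 members that rose after H93 were mainly of the small subunit (7, against 17 small-subunit members that fell). Among large-subunit members 2 rose and 23 fell. RPS27L, a paralogue of RPS27 known as a p53-inducible gene, had 6.26, 5.82 and 6.12 FPKM in H93 and 4.92, 4.69 and 4.76 FPKM in DMSO libraries, with a log2 difference of 0.29 (SE 0.0477, adjusted p = 0.000161, limma). RPS25, needed for translation from some viral internal ribosome entry sites, had 1176, 1161 and 1149.6 FPKM in H93 and 1083, 1015 and 1055 FPKM in DMSO libraries. RPS12, a protein of the small-subunit beak, had 1185, 1146 and 1173 FPKM in H93 and 1093, 1038 and 1042 FPKM in DMSO libraries. In these 3 genes every H93 library lay above every DMSO library. RPS20 (0.13), RPSA (0.10), RPLP0 (0.10) and RPS4Y1 (0.09) also rose. RPS27A, a fusion of ubiquitin with a ribosomal protein (0.08, adjusted p = 0.0187), and RPL27 completed the list.

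Of the 40 members called lower, 33 kept the call when any 1 library was left out, and of the 9 called higher 7 did. In every alternative run 28 of the 40 and 5 of the 9 kept the call. RPS27A lost its call without DMSO replicate 1 (adjusted p = 0.0785) or H93 replicate 1 (adjusted p = 0.0959), both from limma. RPS20 and RPS4Y1, though not RPSA, RPLP0, RPS12, RPS25 or RPS27L, were no longer called under quantile normalization (adjusted p = 0.129 and 0.0538, limma).

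The second comparison set SAHA against solvent. In it 22 members were higher and 10 lower in SAHA than in DMSO at an adjusted p under 0.05 (limma with Benjamini-Hochberg), and 47 were not called, where 27.4% of all tested genes were called higher and 31.4% lower. The share called higher (27.8%) was near the background, and the share called lower (12.7%) was below it. The SAHA and DMSO libraries did not overlap in 34 members, against 64.1% of all tested genes. None reached 2-fold, where 1.12% of tested genes did. Of small-subunit members 9 rose and 3 fell, and of large-subunit members 13 rose and 7 fell. The median difference was 0.02 over members and -0.01 over all tested genes, and the members' median turned to -0.02 under quantile normalization. The split between directions was not stable: it was 27 higher and 3 lower with median-ratio rescaling, 20 and 15 with a fixed sum per library, 20 and 11 with a sum fixed without the members, and 12 and 27 under quantile normalization.

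RPS12, RPS20 and RPSA rose most after SAHA. RPS12 had 1223, 1251 and 1289.9 FPKM in SAHA and 1093, 1038 and 1042 FPKM in DMSO libraries. RPS20, a protein of the small-subunit head, had 338, 357 and 359 FPKM in SAHA and 306, 288 and 304 FPKM in DMSO libraries. RPSA, also known as the laminin receptor precursor, had 1439, 1442 and 1517 FPKM in SAHA and 1278, 1221 and 1279 FPKM in DMSO libraries. No SAHA library of these 3 genes reached down to a DMSO library. Their log2 differences were 0.25 (SE 0.0265, adjusted p = 6.60e-06) for RPS12, 0.23 (SE 0.0332, adjusted p = 8.08e-05) for RPS20 and 0.22 (SE 0.0255, adjusted p = 1.26e-05) for RPSA in limma. RPS25 (0.20), RPL39L (0.18), RPLP0 (0.18) and RPL24 (0.15), which forms a bridge between the subunits, followed. RPLP0 and RPS18 (0.12) were not called under quantile normalization (adjusted p = 0.637 and 0.531, limma).

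RPL35, RPS9 and RPL7A fell after SAHA too, by less than after H93 in group means. RPL35 had 1145, 1171 and 1223 FPKM in SAHA libraries, against the DMSO values given above. RPS9 had 371, 395 and 394 FPKM and RPL7A 1311, 1366 and 1412 FPKM in SAHA libraries. The SAHA and DMSO libraries did not overlap in any of the 3 genes, and the log2 differences were -0.12 (adjusted p = 0.00194) for RPL35, -0.12 (adjusted p = 0.00742) for RPS9 and -0.09 (adjusted p = 0.00849) for RPL7A in limma. They were the only 3 of the 10 lower members that kept the call with any 1 library left out, and they kept it in every other alternative run. The count of lower members was 6 without DMSO replicate 1 and 5 without DMSO replicate 3. Without SAHA replicate 1, the library below its group, 30 members were higher and 7 lower and the median was 0.05, and without SAHA replicate 3 the median was 0.00245. RPL28, RPS14, RPL8, RPS15 and RPL36, all called lower at log2 differences between -0.09 and -0.07, each lost the call without at least 1 library, with adjusted p values up to 0.125 in limma.

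The third comparison set H93 directly against SAHA, each at its own dose. Of the 79 members, 49 were lower and 2 higher in H93 than in SAHA at an adjusted p under 0.05 (limma with Benjamini-Hochberg), and 28 were not called. Over all tested genes 13.9% were called lower and 17.6% higher, against 62.0% and 2.53% of the members. The median difference was -0.10 over members and 0.02 over all tested genes, and 74 of 79 members lay below 0. The H93 and SAHA libraries did not overlap in 51 members, where 44.4% of all tested genes did not overlap. No member reached 2-fold, and 0.0174% of tested genes did. Both subunits showed this, with 18 of 33 small-subunit and 31 of 46 large-subunit members lower. With quantile normalization 24 members were lower and 4 higher, with a median of -0.04, and without the filter on low values 32 were lower. Of the 49 members called lower, 26 kept the call with any 1 library left out, and 12 kept it in every alternative run.

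RPL12 differed most between the compounds. It had 716, 737 and 726 FPKM in H93 and 832, 861 and 854 FPKM in SAHA libraries, beside 827, 828 and 838 FPKM in DMSO libraries. The H93 libraries lay apart from all 6 others, and the log2 difference from SAHA was -0.22 (SE 0.0203, adjusted p = 2.94e-05, limma). RPS3 and RPS2, which line the mRNA entry channel with RPS9, followed. RPS3 had 368, 358 and 367 FPKM in H93 and 394, 422 and 420.3 FPKM in SAHA libraries (-0.18, adjusted p = 0.000743, limma). RPS2 had 1998, 1984 and 2008 FPKM in H93 and 2153, 2299 and 2303 FPKM in SAHA libraries (-0.17, adjusted p = 0.00099, limma). RPL6 (-0.17), RPL4 (-0.16), which narrows the exit tunnel, RPL27A (-0.16) and RPL13A (-0.16) were also lower. Under quantile normalization RPS2, RPL4 and RPL13A were not called (adjusted p = 0.106, 0.0703 and 0.0563, limma), while RPL12, RPS3, RPL6 and RPL27A were.

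**Figure D3:**
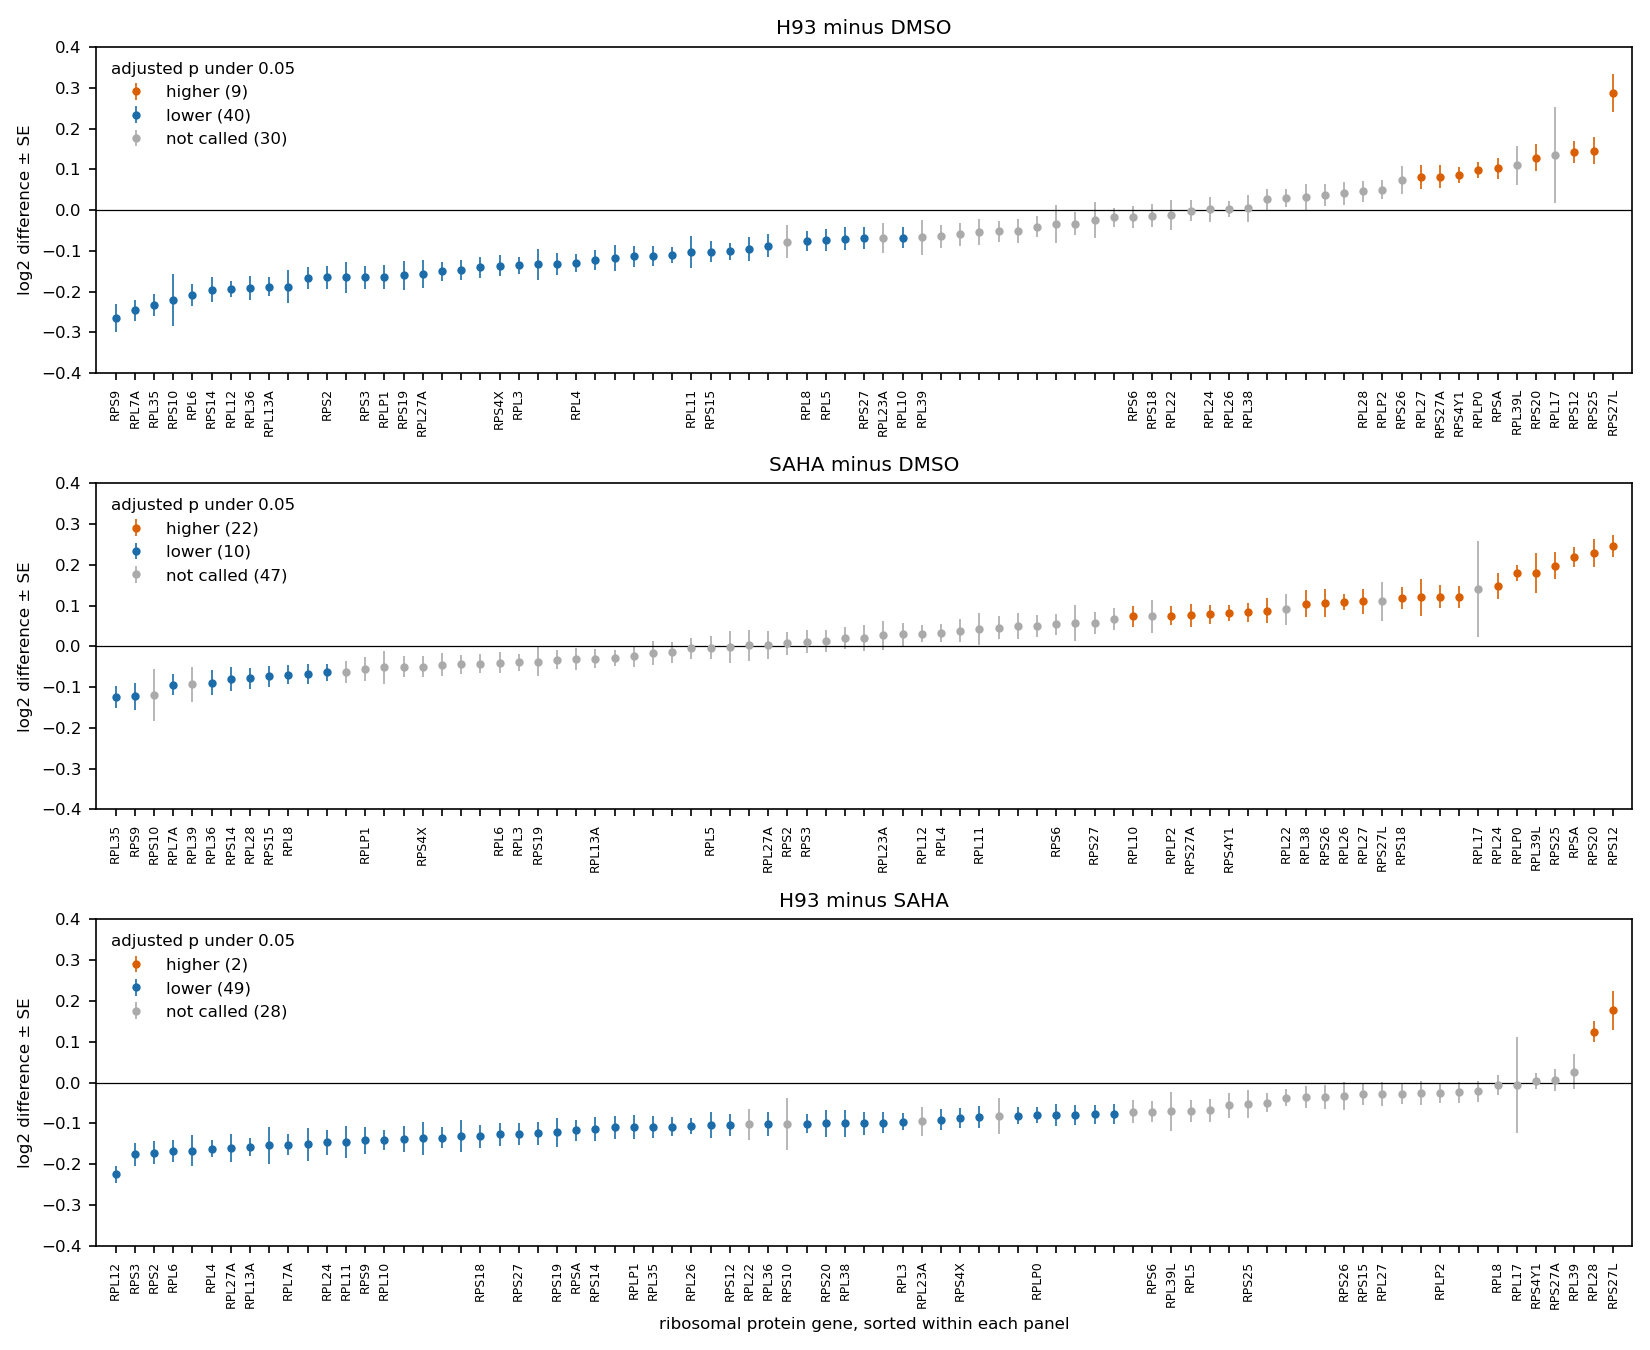
Log2(FPKM + 1) difference ± SE of each of the 79 genes in the 3 comparisons (limma, 3 libraries against 3), sorted within each panel and coloured by the call at an adjusted p under 0.05. Most genes lie below 0 in H93 minus DMSO and in H93 minus SAHA, whereas SAHA minus DMSO is spread around 0, with 46 genes above and 33 below; the SAHA split turns round under quantile normalization.

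RPS27L and RPL28 were the 2 members higher in H93 than in SAHA. RPL28 had 63.0, 62.0 and 62.0 FPKM in H93, 57.6, 55.1 and 58.6 FPKM in SAHA and 60.4, 60.2 and 60.3 FPKM in DMSO libraries. All H93 values lay above all SAHA values (0.12, SE 0.0258, adjusted p = 0.00382, limma), a call kept in every alternative run. RPS27L had 4.96, 5.57 and 5.24 FPKM in SAHA libraries, below its H93 values (0.18, adjusted p = 0.015, limma). Its call was lost without H93 replicate 1 (adjusted p = 0.0569) or SAHA replicate 1 (adjusted p = 0.055). RPS27L and RPL28 have none of the named pseudogenes.

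Read across the 3 comparisons, which share libraries, the calls fell into a few patterns. The largest held 26 members that were lower in H93 than in both SAHA and DMSO and not called between SAHA and DMSO, among them RPL12, RPL3, RPL4, RPS2, RPS3 and RPS19. RPS19 lost its call against SAHA without H93 replicate 1 (adjusted p = 0.0858) or SAHA replicate 3 (adjusted p = 0.0808), both limma. Under quantile normalization RPL3 lost its call against SAHA (adjusted p = 0.103, limma) and RPS2 its call against DMSO (adjusted p = 0.339, limma). In 6 members, among them RPL35, RPL36, RPL7A, RPS14 and RPS9, H93 was lowest, SAHA between and DMSO highest, with all 3 comparisons called. Between H93 and SAHA, RPL35 lost its call under quantile normalization (adjusted p = 0.254) and RPS14 without H93 replicate 2 (0.0534), both limma. RPL36 lost it without any 1 H93 library, SAHA replicate 3 or the filter on low values, and under quantile normalization (adjusted p up to 0.187, limma). The SAHA calls of RPL36 and RPS14 against DMSO had the limits given above. In 4 members (RPLP0, RPS12, RPS20 and RPSA) both compounds were above DMSO and H93 was below SAHA, but none of the 4 kept every call. Under quantile normalization the difference between the compounds turned to 0.04 for RPLP0 and was no longer called for RPS12 (adjusted p = 0.318) or RPSA (adjusted p = 0.401), both limma. For RPS12 it was also lost without H93 replicate 2 (adjusted p = 0.0534, limma). For RPS20 it was lost without H93 replicate 2 or 3 or SAHA replicate 2 or 3 (adjusted p up to 0.143, limma). RPL10 alone was lower in H93 and higher in SAHA than in DMSO, at 207, 209 and 206 FPKM in H93, 222, 227 and 238 FPKM in SAHA and 220.1, 214 and 218 FPKM in DMSO libraries. RPL10 joins the large subunit late in its assembly. Its calls against DMSO were weak, at adjusted p = 0.032 for H93 and 0.0257 for SAHA in limma, and each was lost without some single libraries, among them DMSO replicate 3 (adjusted p = 0.0833 and 0.0536). A further 12 members passed in none of the 3 comparisons with the settings used here, among them RPS6, RPL22, RPL39 and RPL17.

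**Figure D4:**
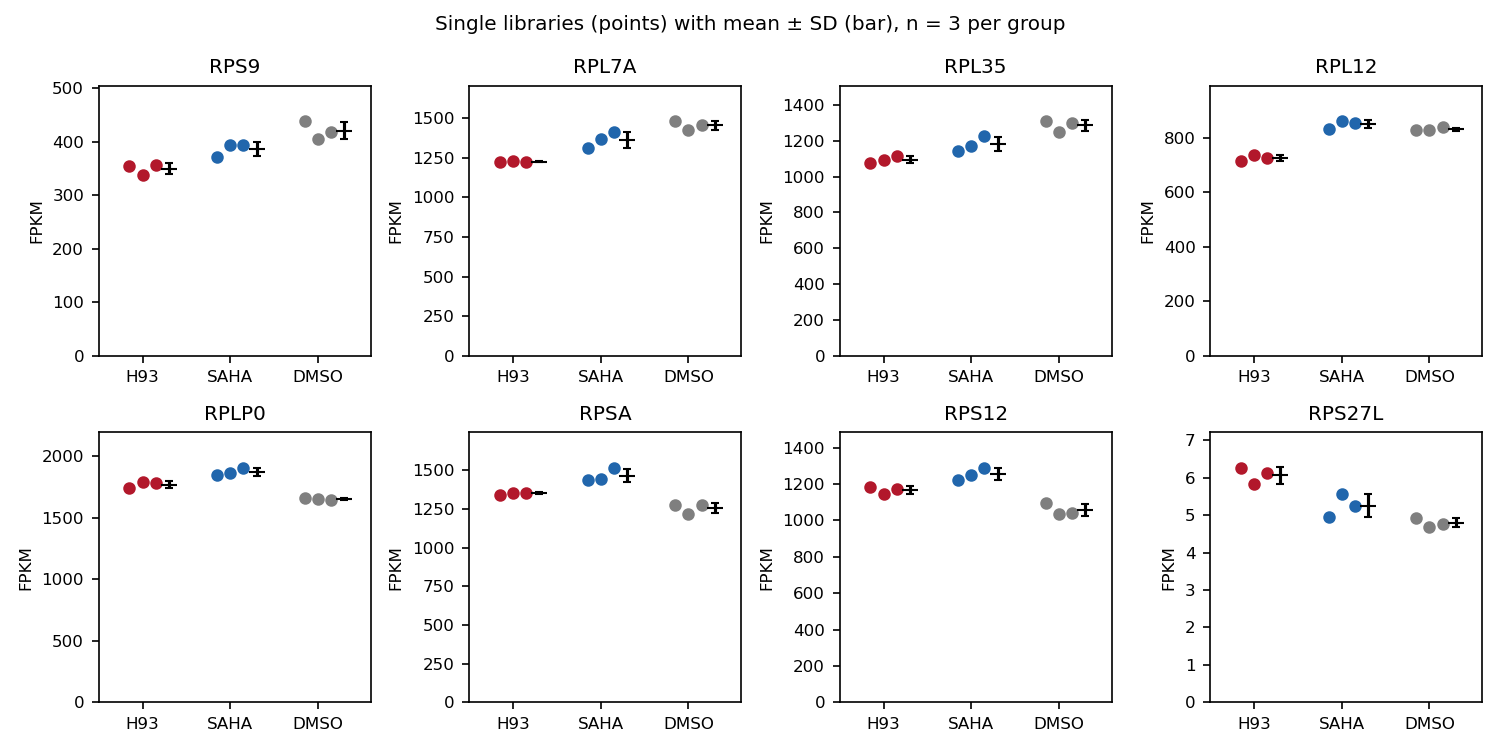
FPKM in single libraries (points) with mean ± SD (bars, n = 3) for 8 ribosomal protein genes in H93, SAHA and DMSO cells; axes start at 0. RPS9, RPL7A and RPL35 are lowest in H93 and highest in DMSO, RPL12 is low in H93 alone, RPLP0, RPSA and RPS12 are lowest in DMSO, and RPS27L is highest in H93.

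The acidic stalk, which recruits the elongation factors, did not move as a unit. RPLP0 averaged 1772 ± 24.9 FPKM in H93, 1874 ± 31.9 in SAHA and 1655 ± 4.93 in DMSO (SD, n = 3 each), higher with each compound than with solvent, although the SAHA call was lost under quantile normalization. RPLP1 averaged 904 ± 16.8 FPKM in H93, 976 ± 42.8 in SAHA and 1013 ± 19.0 in DMSO, and fell after H93 (-0.16, adjusted p = 0.000319, limma) but was not called after SAHA (-0.05, adjusted p = 0.132, limma). Some alternatives did call RPLP1 lower after SAHA: a fixed sum per library (adjusted p = 0.0403), quantile normalization (0.0263) and leaving out SAHA replicate 3 (0.0123), all limma. RPLP2, the partner of RPLP1, averaged 1145 ± 7.40 FPKM in H93, 1166 ± 39.2 in SAHA and 1106 ± 12.5 in DMSO, and rose after SAHA (0.08, adjusted p = 0.0163, limma). That call was lost without DMSO replicate 2 (adjusted p = 0.0603), without the filter on low values (0.0529) and under quantile normalization (0.0378, adjusted p = 0.21), all limma.

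RPL5 and RPL11 form the 5S ribonucleoprotein with 5S rRNA and can bind the p53 ligase MDM2 outside the ribosome. RPL5 had 577, 557 and 542 FPKM in H93, 569, 597 and 592 FPKM in SAHA and 602, 578 and 582 FPKM in DMSO libraries. RPL11 had 474, 485 and 499 FPKM in H93, 509.6, 549 and 554 FPKM in SAHA and 547, 495 and 524 FPKM in DMSO libraries. The H93 libraries of RPL5 lay just below those of DMSO and those of RPL11 overlapped them. Both were called lower in H93 than in DMSO (-0.07, adjusted p = 0.0321 for RPL5 and -0.10, adjusted p = 0.0327 for RPL11, limma), and both calls were lost without some single libraries, among them DMSO replicate 1 (adjusted p = 0.129 and 0.148, limma).

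RPS6, the substrate of the S6 kinases, was not called in any comparison, at 551, 548 and 546 FPKM in H93, 566, 601 and 561 FPKM in SAHA and 566, 544 and 554 FPKM in DMSO libraries. With median-ratio rescaling or without SAHA replicate 3 it was called higher in SAHA than in DMSO (adjusted p = 0.0462 and 0.043) and lower in H93 than in SAHA (0.0315 and 0.0359), all limma. RPS19, the gene most often mutated in Diamond-Blackfan anaemia, fell after H93 (-0.16, adjusted p = 0.00144, limma), with 337 ± 14.5 FPKM in H93, 367 ± 15.2 in SAHA and 377 ± 9.06 in DMSO (SD, n = 3 each). RPL38, known in mouse for the translation of Hox mRNAs, rose after SAHA (0.10, adjusted p = 0.0158, limma), a call lost without DMSO replicate 3 (adjusted p = 0.071) or SAHA replicate 3 (adjusted p = 0.0686). Under quantile normalization that difference was 0.0303 (adjusted p = 0.398, limma). RPL38 was not called after H93 (0.00451, adjusted p = 0.91, limma). RPL22 was not called in any comparison, with differences of -0.01, 0.09 and -0.10 for H93 against DMSO, SAHA against DMSO and H93 against SAHA. With median-ratio rescaling, a mean of at least 5 FPKM, or SAHA replicate 1 left out, RPL22 was called higher in SAHA than in DMSO and lower in H93 than in SAHA (adjusted p down to 0.00977 and 0.0148, limma). The call against DMSO also appeared without DMSO replicate 1 (0.0397) or H93 replicate 3 (0.0472). RPL3, which reaches the peptidyl transferase centre, fell after H93 (-0.14, adjusted p = 0.000111, limma).

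Several members have a paralogue that can take the same place in the ribosome, and their coding sequences show how alike each pair is. RPS27 and RPS27L have coding sequences of 252 bases that share 196 (77.8%), and RPL39 and RPL39L have 153 bases that share 94.8%. The first 90 bases of each coding sequence on GRCh38 (GENCODE 29) are shown, with the positions that differ within a pair in capitals.
RPS27: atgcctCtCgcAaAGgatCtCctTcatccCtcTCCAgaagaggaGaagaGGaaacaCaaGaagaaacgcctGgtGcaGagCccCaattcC
RPS27L: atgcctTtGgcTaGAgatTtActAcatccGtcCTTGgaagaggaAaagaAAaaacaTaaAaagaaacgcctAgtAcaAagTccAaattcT
RPL39: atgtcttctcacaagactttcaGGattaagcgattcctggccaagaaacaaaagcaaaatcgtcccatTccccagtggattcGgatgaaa
RPL39L: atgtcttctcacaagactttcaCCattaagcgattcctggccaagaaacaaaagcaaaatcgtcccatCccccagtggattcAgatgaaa
RPS27 (chr1:153990755-153992155) and RPS27L (chr15:63125872-63158021) differ at 24 of the 90 positions shown, while RPL39 (chrX:119786504-119791643) and RPL39L (chr3:187120948-187180908) differ at 4 of 90. By coding sequence the RPL39 pair is therefore the harder one to separate with short reads. Read length and the untranslated regions were not examined, so how far its values are affected is not known.

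RPS27L stood at 6.07 ± 0.226 FPKM in H93, 5.25 ± 0.305 in SAHA and 4.79 ± 0.121 in DMSO (SD, n = 3 each), while RPS27 stood at 1698 ± 22.7, 1853 ± 55.8 and 1781 ± 47.4 FPKM in the same groups. RPS27 was called lower in H93 than in DMSO (-0.07, adjusted p = 0.0328, limma), a call lost without DMSO replicate 1 (adjusted p = 0.131), DMSO replicate 3 (0.0948) or any 1 H93 library (up to 0.116). RPL39L, a copy best known from male germ cells, rose after SAHA (0.18, adjusted p = 0.00652, limma), with 46.4, 49.6 and 49.8 FPKM in SAHA and 45.5, 43.2 and 39.8 FPKM in DMSO libraries. It had 48.3, 46.6 and 43.8 FPKM in H93 libraries, which overlapped DMSO, and was not called after H93 (0.11, adjusted p = 0.0598, limma). Some alternatives did call RPL39L higher after H93. These were a fixed sum per library, a mean of at least 5 FPKM, quantile normalization, and leaving out DMSO replicate 1 or H93 replicate 3 (adjusted p up to 0.0499, limma). RPL39 was not called in any comparison, at 393 ± 26.4 FPKM in H93, 385 ± 17.7 in SAHA and 411 ± 5.95 in DMSO. Some alternatives did call RPL39 lower than in DMSO, after H93 under quantile normalization (adjusted p = 0.0112) and without H93 replicate 1 (0.0259), both limma. After SAHA these were quantile normalization (adjusted p = 0.00787), a fixed sum per library, the fit to 6 libraries, and leaving out H93 replicate 1 or 3 or SAHA replicate 2 (adjusted p up to 0.0476, limma).

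RPS4X and RPS4Y1 encode versions of 1 small-subunit protein from the X and the Y chromosome, and 82.1% of their 789 coding bases are the same. RPS4X fell after H93 (-0.14, adjusted p = 0.000362, limma), with 261, 254 and 246 FPKM in H93 and 274, 279.6 and 283 FPKM in DMSO libraries. RPS4Y1 rose in the same comparison (0.09, adjusted p = 0.0021, limma), with 370.4, 367 and 360.2 FPKM in H93 and 346, 346 and 342 FPKM in DMSO libraries. The H93 and DMSO libraries did not overlap in either gene. After SAHA RPS4Y1 also rose (0.08, adjusted p = 0.00395) and RPS4X was not called (-0.05, adjusted p = 0.106), both limma. RPS4Y1 was not called between H93 and SAHA (0.00448, adjusted p = 0.884, limma). Under quantile normalization RPS4Y1 lost its SAHA call (adjusted p = 0.12), while RPS4X was called lower after SAHA (-0.12, adjusted p = 0.00143), both limma. RPS4X has 23 named pseudogenes and RPS4Y1 has none. RPL3L lay under the level threshold, and RPL10L, which shares 89.3% of its coding bases with RPL10, was not analysed here.

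A further 8 ribosomal or ribosome-like proteins carry other symbols. Of these 3 rose and 2 fell after H93, and 3 rose and 2 fell after SAHA, both against DMSO. The share that rose (37.5%) was near the 34.9% over all tested genes for H93, where 35.0% fell, and stood beside 27.4% higher and 31.4% lower for SAHA. RPL26L1, a copy of RPL26, differed far more than any member. It had 43.1, 45.6 and 41.9 FPKM in H93, 37.3, 39.1 and 42.6 FPKM in SAHA and 24.5, 23.1 and 25.5 FPKM in DMSO libraries. Neither compound's libraries overlapped DMSO, with log2 differences of 0.81 (SE 0.0497, adjusted p = 2.15e-08) for H93 and 0.68 (adjusted p = 2.20e-07) for SAHA in limma. RPL36AL, the copy of RPL36A, rose after H93 (0.12). RACK1, a scaffold protein on the small-subunit head, fell after H93 (-0.17, adjusted p = 8.85e-06, limma) and after SAHA (-0.09, adjusted p = 0.00172, limma). FAU was not called in any comparison.

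The members were also divided by the 5′ tract at a listed start, with the limit of that search given above. In H93 against DMSO, 22 of 46 members with a tract were lower and 6 higher (median -0.07), beside 9 lower and 2 higher of 17 members with a start but no tract (median -0.07). In SAHA against DMSO the counts were 7 lower and 13 higher with a tract (median 0.03), and 1 lower and 4 higher without (median 0.03). In H93 against SAHA they were 31 lower and 1 higher with a tract (median -0.10), and 8 lower and 1 higher without (median -0.08). Over all tested genes the shares lower and higher were 35.0% and 34.9%, 31.4% and 27.4%, and 13.9% and 17.6% in these comparisons. The difference between members with and without a tract was not tested.

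Members with a GC-rich coding sequence tended to lower differences against solvent. Over the 79 members Pearson's r between coding GC content and the log2 difference was -0.37 for H93 against DMSO and -0.41 for SAHA against DMSO, and -0.07 for H93 against SAHA (Spearman's rho -0.35, -0.41 and -0.11). The first pair of values share the DMSO libraries, and all points share library and sequencing conditions, so they are a description across genes. Over 11298 tested genes with a coding sequence r was -0.18, -0.17 and -0.14. RPS27L had the lowest GC content of the members, at 42.1%, and RPS9 stood at 60.5%. The part of base composition in the differences was not tested.

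**Figure D5:**
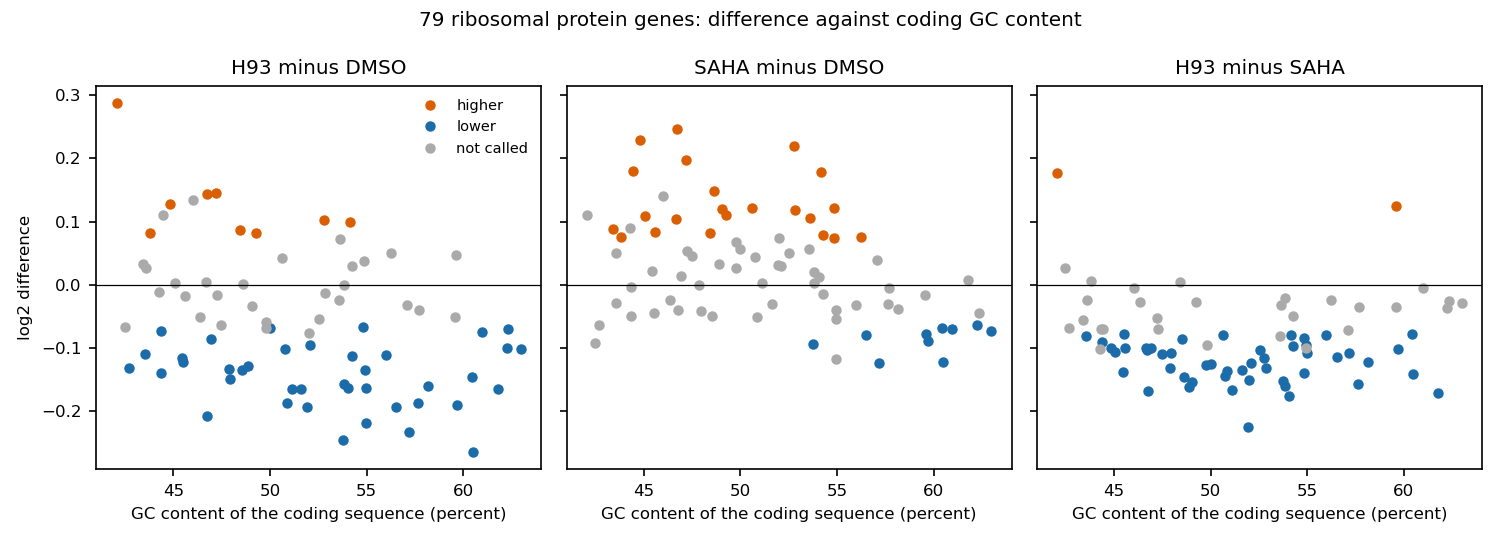
Log2(FPKM + 1) difference against the GC content of the coding sequence (percent) for the 79 genes in each comparison, coloured by the call at an adjusted p under 0.05. Against DMSO the genes with higher GC content lie lower (r = -0.37 for H93 and -0.41 for SAHA), while H93 minus SAHA shows little slope (r = -0.07).

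Other genes of the translation machinery, taken from textbook lists, included larger differences than those of any member. Of 16 translation factors and other mRNAs known for a 5′ tract, 11 fell and 4 rose after H93 (median -0.18), where 35.0% of all tested genes were lower and 34.9% higher. After SAHA 9 fell and 5 rose (median -0.09), where 31.4% of all tested genes were lower and 27.4% higher. In H93 against SAHA 9 were lower and 0 higher at an adjusted p under 0.05 in limma, with a median of -0.10. In that comparison 13.9% of all tested genes were lower and 17.6% higher. EEF1D, a subunit of the exchange factor of elongation factor 1, had 61.0, 61.1 and 63.0 FPKM in H93, 69.9, 71.7 and 70.5 FPKM in SAHA and 92.7, 93.1 and 89.7 FPKM in DMSO libraries. NPM1, a nucleolar chaperone of ribosome assembly, had 326, 322 and 317 FPKM in H93, 361, 391 and 370.5 FPKM in SAHA and 442, 438 and 436 FPKM in DMSO libraries. The 3 groups did not overlap in either gene, and both fell after H93 (-0.57, adjusted p = 1.19e-09 for EEF1D and -0.45, adjusted p = 1.82e-08 for NPM1, limma). EEF1A1, the main elongation factor, fell after H93 (-0.10, adjusted p = 0.00097, limma), whereas EIF3F rose (0.31, adjusted p = 3.57e-06, limma).

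Among 12 other initiation, elongation and release factors 4 rose (33.3%, against 34.9% of all tested genes) and 3 fell after H93, and 5 rose and 3 fell after SAHA. Over all tested genes 35.0% fell after H93, and 27.4% rose and 31.4% fell after SAHA. The scaffold EIF4G1 fell after H93 (-0.34) and the initiation factor subunit EIF2S1 rose (0.29). Of 10 chaperones and importers of ribosomal proteins 6 fell and 0 rose after H93 in limma, and 7 fell and 1 rose after SAHA. GRWD1, a chaperone of RPL3 (-0.28), and the importer IPO5 (-0.20) fell after H93. TSR2, which escorts RPS26, was the chaperone that rose after SAHA (0.15).

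Of 17 genes of the mTORC1 pathway and of factors that bind ribosomal protein promoters or mRNAs, 9 fell and 6 rose after H93, and 8 fell and 3 rose after SAHA. The share that rose after H93 (35.3%) was near the 34.9% over all tested genes, of which 35.0% fell; for SAHA these were 27.4% and 31.4%. MLST8, a subunit of both mTOR complexes, had 3.34, 3.54 and 3.85 FPKM in H93, 5.13, 4.88 and 5.34 FPKM in SAHA and 10.2, 10.4 and 9.72 FPKM in DMSO libraries. The 3 groups did not overlap, and the log2 difference from DMSO was -1.28 for H93 (adjusted p = 5.79e-10, limma) and -0.86 for SAHA (adjusted p = 3.85e-08, limma). MTOR itself fell by less (-0.14 for H93). LARP1, which binds the 5′ tract, fell after H93 (-0.09, adjusted p = 0.0122, limma) and was not called after SAHA. EIF4EBP2, a repressor of cap-dependent initiation, rose after H93 (0.31), and MYC, a transcriptional activator of ribosomal protein genes, rose after H93 (0.13). MAX of the same list rose by more (0.66), while GABPA (-0.47), SP1 (-0.32) and YY1 (-0.20) were called lower after H93.

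The ribosome of the mitochondrion was set beside the cytosolic one. Of 77 tested mitochondrial ribosomal protein genes 39 (50.6%) were lower and 10 higher in H93 than in DMSO, with a median of -0.12. In SAHA against DMSO 34 were lower and 7 higher, with a median of -0.07, where the cytosolic members had 10 lower and 22 higher. Over all tested genes 35.0% were lower and 34.9% higher in H93 against DMSO, and 31.4% lower and 27.4% higher in SAHA against DMSO. In H93 against SAHA 21 were lower and 6 higher, with a median of -0.04, where the cytosolic members had 49 lower and 2 higher and all tested genes 13.9% lower and 17.6% higher. Both contrasts between the lists were far smaller under quantile normalization, which gave 32 mitochondrial genes lower and 8 higher beside 27 cytosolic members lower and 12 higher in SAHA against DMSO, and 22 and 3 beside 24 and 4 in H93 against SAHA. MRPS26, of the mitochondrial small subunit, fell after H93 (-0.57, adjusted p = 3.16e-08, limma) and after SAHA (-0.41, adjusted p = 1.36e-06, limma), with no overlap between groups. The difference between the 2 lists was not tested.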

How the data were processed

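RNA of DU145 cells was sequenced from 3 libraries per group, with a stranded mRNA kit per the labels' protocols. The authors deposited FPKM per gene and library. The submitters' notes on processing list Trimmomatic 0.36, HISAT2, Cufflinks and GRCh38.p13 without their roles, with annotation and strand use not given in the sources used here. FPKM is relative to the library total.

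Values were analysed as log2(FPKM + 1), which understates changes of low genes, over 11525 genes at 1 FPKM or more in at least 3 of 9 libraries. One limma 3.58.1 model (R 4.3.3) of the 3 groups used every library, with trended, moderated variances and two-sided tests adjusted by Benjamini-Hochberg over all tested genes. A run on simulated data had far fewer changed genes than were called here, and no call rests on it. A call is an adjusted p under 0.05, and a 2-fold call also needs a log2 difference of at least 1. Members, lists and tests were chosen with earlier results of these data known. Named members were, per comparison, the 8 largest called rises and falls without overlap, members listed for their role, paralogue pairs, and the 4 highest and 4 lowest; some of these are not reported here. Groups came from sample titles, and no batch is given. Coding sequences came from GENCODE 29 and starts from RefSeq. A list of 7 snoRNA host genes had 0 rows and is not analysed here. Alternatives were other pseudocounts, filters, scalings and moderation, a fit to the 6 libraries compared, a replicate block, and leaving out each library. Python 3.11.15, pandas 2.3.3, numpy 2.4.6 and matplotlib 3.10.9 were used.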

Additional observations from a re-analysis of the deposited data

How the results depend on the processing

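With any 1 library left out, 34 to 43 members were lower and 7 to 11 higher in H93 than in DMSO (median -0.08 to -0.06). These ranges were 5 to 11 lower and 17 to 30 higher in SAHA against DMSO (median 0.00245 to 0.05), and 33 to 53 lower and 1 to 2 higher in H93 against SAHA (median -0.12 to -0.08). The members' share of the summed FPKM ranged over 13.02 to 13.07 percent in H93, 13.71 to 13.97 in SAHA and 13.52 to 13.70 in DMSO. Without a filter on low values, which adds genes to the adjustment, 5 were lower in SAHA against DMSO and 32 in H93 against SAHA. Median-ratio rescaling gave 3 lower in SAHA against DMSO. Quantile normalization, which forces 1 distribution on all libraries, gave 12 higher and 27 lower in SAHA against DMSO, 4 higher and 24 lower in H93 against SAHA with a median of -0.043, and shares of 13.29 percent in H93 and 13.52 in SAHA. The other alternatives moved no count of called members by over 1.5 times. Same-numbered libraries did not consistently deviate together (correlations of -0.0975 to 0.0355 over all tested genes, and of -0.63 to 0.43 over the members), so the numbers were not taken as pairs. With the replicate number as a block, 10 members were higher and 40 lower in H93 against DMSO, 22 and 9 in SAHA against DMSO, and 2 and 46 in H93 against SAHA. Among named members the block ended 3 calls, RPS14 for SAHA against DMSO (adjusted p = 0.0555) and RPL38 and RPS20 for H93 against SAHA (0.0516 and 0.0641), all limma. Some named members changed sign. Under quantile normalization these were RPL38 (-0.0626) for H93 against DMSO, RPL11 (-0.00531), RPS27 (-0.0983) and RPS3 (-0.0580) for SAHA against DMSO, and RPLP0 (0.0370), RPLP2 (0.0306) and RPS25 (0.0306) for H93 against SAHA. There RPS27 and RPS3 became calls, lower in SAHA than in DMSO (adjusted p = 6.07e-05 and 0.0195, limma), while RPS27 was called higher with median-ratio rescaling (0.0715, adjusted p = 0.0442, limma) and without DMSO replicate 1 or SAHA replicate 1 (0.0471 and 0.0425). Under median-ratio rescaling signs turned for RPL5 (0.0113) for SAHA against DMSO and RPS4Y1 (-0.01000) for H93 against SAHA, and with the sum fixed without the members RPL38 (-0.00140) for H93 against DMSO. With 1 library left out, H93 minus DMSO ran over -0.0280 to 0.0159 for RPL22, turned without DMSO replicate 1 or H93 replicate 3, and -0.0188 to 0.0231 for RPL38, turned without DMSO replicate 3 or H93 replicate 3. SAHA minus DMSO ran over -0.0167 to 0.0177 for RPL5, turned without DMSO replicate 1 or SAHA replicate 1, and -0.00593 to 0.0434 for RPS3, turned without SAHA replicate 2 or 3. H93 minus SAHA ran over -0.0200 to 0.0768 for RPL39, turned without H93 replicate 1, -0.0420 to 0.00235 for RPLP2, turned without SAHA replicate 3, and -0.00729 to 0.0159 for RPS4Y1, turned without H93 replicate 1 or SAHA replicate 1. The cause was not tested. Depth is unknown, so no counting error could be given.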
